A study of Homo sapiens and Mus musculus with 213 samples.

Results

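The genes described here encode the subunits of the oxidative phosphorylation system, taken by gene symbol: NDUFA, NDUFB, NDUFC, NDUFS and NDUFV genes of complex I (except NDUFA4 and NDUFA4L2, grouped with complex IV, where NDUFA4 is a subunit), SDHA to SDHD of complex II, UQCR genes of complex III, COX4 to COX8 genes of complex IV, ATP5 genes of complex V, and the protein-coding genes of the mitochondrial genome. Of 58336 gene identifiers listed in the RNA-seq tables, 102 met this definition, 89 of them nuclear and 13 mitochondrial. Within this family the members were taken by symbol and not by any measured value. RNA was measured in lines of HEK293T, a human embryonic kidney cell line, with 3 libraries in each of the 2 lines compared here. MYC WT carried the natural MYC promoter with its G-quadruplex, a stack of guanine tetrads that can form in G-rich DNA. In MYC MUT, point mutations in the guanine runs removed the ability to fold into this structure. MYC MUT was made by CRISPR editing and was a homozygous subclone, and the sources used here do not say whether the libraries of a line came from separate clones. The sample titles label the libraries of each line as biological replicates (Bio). The p-values measure the spread between these libraries, which need not cover differences between clones. The column headers of the MYC WT tables carried a shared suffix that those of MYC MUT lacked, and its meaning is not given in the sources used here. If it marks a batch, that batch and the difference between the lines cannot be told apart.

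In oxidative phosphorylation, complexes I and II pass electrons from NADH and succinate to ubiquinone, complex III passes them to cytochrome c and complex IV to oxygen. Complexes I, III and IV pump protons across the inner mitochondrial membrane, and complex V, the ATP synthase, makes ATP from the return flow. Complex II is built from nuclear genes alone, whereas the other complexes join nuclear subunits with core subunits translated inside mitochondria. The transcription factors NRF1, GABPA and YY1 are known to bind many promoters of the nuclear genes, and MYC binds the E-box.

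Promoters of 300 bases, from 250 bases before to 50 bases after the RefSeq start, were found for 70 of the 89 nuclear genes in the RefSeq promoter table of GRCh38.p14. The NRF1 motif GCGCANGCG, read on both strands, was in 31.4% of these 70 promoters and in 8.05% of all 27305 promoters of that table. For the GABPA motif CCGGAAGT the shares were 14.3% and 4.44%, and for the YY1 motif AAGATGGCG they were 11.4% and 1.85%. The MYC E-box CACGTG was in 10.0% of the members' promoters and 7.43% of all promoters. At least 1 of the NRF1, GABPA and YY1 motifs was in 48.6% of the members' promoters and in 13.1% of all. The letters are a description of these windows and not a record of binding. Of the genes called below, UQCRB, COX6C and NDUFS5 had no promoter among the 70, and COX7A2 had none of these motifs. The matches in promoters of genes called below are shown with 10 bases on each side, 5′ to 3′ on the strand of the gene and with the motif in capitals, because these are the genes on which the comparisons turn.
ATP5F1C, NRF1 motif, chr10:7788145-7788173, plus strand, before the RefSeq start and at the 5′ end of the GENCODE gene: gggagcttcgGCGCATGCGcgctgaggcc
SDHB, YY1 motif, chr1:17054004-17054032, minus strand, in the first exon: gtcaggagccAAGATGGCGgcggtggtcg
ATP5PB, E-box, chr1:111449231-111449256, plus strand, before the RefSeq start: cagcaaacccCACGTGgtgcacctct
In ATP5F1C the motif overlapped a second match that began 1 base further on the opposite strand, and the E-box reads the same on both strands. The first base of the motif lay 22 bases before the RefSeq start in ATP5F1C and 223 bases before it in ATP5PB. The ATP5PB window lies inside the span that GENCODE gives this gene. In MYC MUT the median log2 fold changes were 0.051 for 21 tested members with the NRF1 motif and -0.00067 for 45 without it, and for the E-box they were -0.026 for 7 members with it and 0.045 for 59 without. None of these motif groups was tested.

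The 6 libraries of both lines held 68170323 to 79913764 reads in genes. MYC itself, the target of the edit, was at 20020, 28396 and 21580 normalized counts in MYC WT and at 10693, 11176 and 12400 in MYC MUT, a fall (log2 fold change -1.02, limma adjusted p = 0.0018). Of the markers fixed for HEK293T cells, VIM was at 52185 to 63784 normalized counts, CDH2 at 8123 to 12295 and KRT18 at 2721 to 4112, whereas KRT8 and PAX2 were lower, at 399.8 to 804 and 177 to 434. Markers of blood, endothelium and liver (PTPRC, CD3E, PECAM1 and ALB) did not exceed 3.85, and of the striated muscle markers MYH7 and CKM did not exceed 6.82 while ACTA1 was at 30.8 to 48.7. Of these HEK293T markers 4 of 5 were higher in MYC MUT: KRT8 by a log2 fold change of 0.77, PAX2 by 0.69, KRT18 by 0.47 and CDH2 by 0.46 (limma adjusted p = 0.000413, 0.046, 0.000524 and 0.000452). Over all genes tested 18.6% were higher by adjusted p alone. VIM was at -0.029 and did not pass. The part of these markers in the results below was not tested.

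A gene entered the test when its mean over the 9 RNA-seq libraries of the series was at least 10 normalized counts. In all, 82 nuclear and all 13 mitochondrial members passed this minimum, among 20884 genes tested. The 7 others were at or near 0. COX4I2, COX6A2 and COX7A1, the lung or muscle forms of their subunits, had 0 reads among 455331053 reads in 6 libraries, which allows up to 0.0375 to 0.0440 CPM depending on the library, for counting error only. COX7B2 had 1 read and COX8C, both known as testis forms, had 22 reads. The read-through genes NDUFC2-KCTD14 and ATP5MF-PTCD1 had 19 and 29 reads. The general forms of these 5 complex IV subunits had mean normalized counts in MYC WT of 23381 ± 1790 (SD, n = 3) for COX4I1, 6948 ± 723 for COX6A1, 9260 ± 731 for COX7A2, 10286 ± 125 for COX7B and 12962 ± 1119 for COX8A. Of the tested members with a restricted form, COX6B1 was at 9668 ± 585 against 32.4 ± 5.86 for its testis form COX6B2, and NDUFA4 was at 6004 ± 426 against 52.3 ± 14.3 for NDUFA4L2, which is known as a hypoxia-induced form.

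Levels were compared between genes per kilobase of the annotated canonical transcript. On this scale the median in MYC WT was 59458 normalized counts per kb for the 13 mitochondrial members and 8654 for the 82 nuclear members. Among nuclear genes the highest and lowest were NDUFB10 (28735 ± 2079) and NDUFV2 (180 ± 7.66) in complex I, SDHB (9634 ± 121) and SDHD (3119 ± 350) in complex II, UQCRHL (64115 ± 2369) and UQCRB (1709 ± 39.9) in complex III, COX4I1 (30644 ± 2346) and COX6B2 (20.7 ± 3.74) in complex IV, and ATP5F1B (61852 ± 2747) and ATP5MGL (1390 ± 63.3) in complex V (SD, n = 3). Some of these extremes depend on how a gene is defined: NDUFV2, UQCRHL and ATP5MGL share their reads with a near-identical copy, as described below, and the canonical UQCRB transcript is 8459 bases long, which lowers its value per kb. ATP5F1B, the catalytic beta subunit of the ATP synthase, and COX4I1, which is needed early in complex IV assembly, are abundant without such a limit being found.

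**Figure D1:**
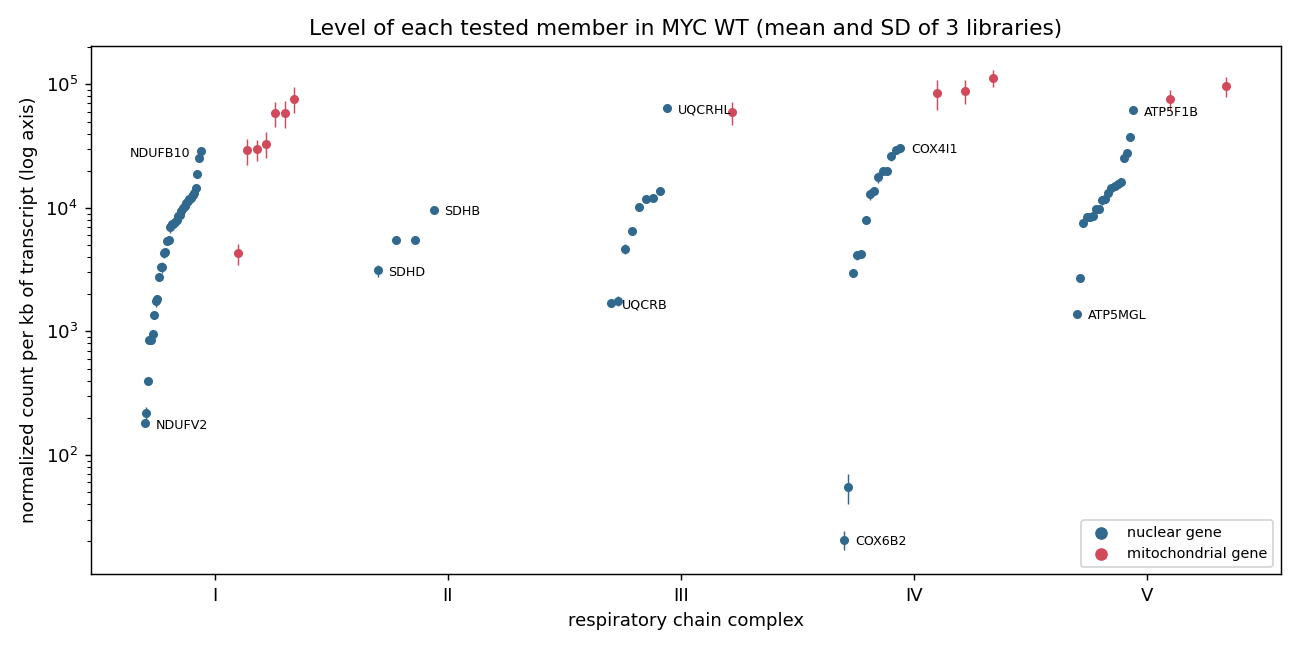
The level of each tested member in MYC WT as normalized counts per kb of canonical transcript (log axis) is plotted by respiratory chain complex, with points for the mean and bars for the SD of 3 libraries. The mitochondrial genes are among the highest points, except MT-ND6 at 4276, and the lowest nuclear point is COX6B2 at 20.7.

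The comparison asked how these genes stood in MYC MUT, the line without the promoter G-quadruplex. Of the 82 nuclear members, 1 rose and 6 fell past the thresholds (limma, adjusted p below 0.05 with an absolute log2 fold change above 0.5), which is 8.54% of them. Over all 20884 genes 11.3% rose and 10.1% fell by the same rule, and 14.2% were called in either direction among the 10149 genes with a mean of at least 1000 normalized counts. The median log2 fold change of the nuclear members was 0.00080, and -0.0034 over all genes tested. With adjusted p alone, 9 rose and 26 fell, 42.7% of the nuclear members against 38.4% of all genes, of which 18.6% rose and 19.8% fell. Of these 35 members 21 kept an adjusted p below 0.05 in all 21 alternative settings, and 14 lost it in at least 1 without a change of sign. Further, in 46 members (56.1%) the 3 MYC MUT libraries did not overlap the 3 MYC WT libraries, against 52.3% of all genes. The share past both thresholds was thus below that of all genes. The shares by adjusted p in either direction and without overlap were close to those of all genes. By direction, 26 of the 82 members fell and 9 rose by adjusted p, whereas over all genes 19.8% fell and 18.6% rose. These differences in share were not tested. In bulk RNA, fewer cells that express a gene and less RNA of it per cell cannot be told apart.

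UQCRB (ENSG00000156467, chr8:96222947-96235546, minus strand), a small ubiquinone-binding subunit of complex III, fell furthest. Its normalized counts were 14108, 14781 and 14483 in MYC WT and 9008, 8893 and 8373 in MYC MUT. Every MYC MUT library lay far below every MYC WT library (log2 fold change -0.72, SE 0.063, limma adjusted p = 1.06e-05). SDHB (ENSG00000117118, chr1:17018664-17054032), the iron-sulfur subunit of complex II, was at 9829, 9637 and 9867 in MYC WT and at 6548, 6191 and 6401 in MYC MUT. The lines did not overlap (-0.62, SE 0.055, adjusted p = 1.24e-05). COX6C (ENSG00000164919, chr8:99873200-99893707), a small subunit of complex IV, was at 5575, 6369 and 5918 in MYC WT against 3986, 4012 and 4000 in MYC MUT (-0.57, SE 0.088, adjusted p = 0.000471), again without overlap.

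NDUFS5 (ENSG00000168653, chr1:39026318-39034636), an accessory subunit of complex I, was at 9157, 8991 and 9825 in MYC WT and at 6223, 6412 and 6677 in MYC MUT (-0.53, SE 0.072, adjusted p = 0.000208). Both called members of complex V belong to its stalks. ATP5F1C (ENSG00000165629, chr10:7788147-7807815), the rotating gamma subunit, was at 17965, 16990 and 18606 in MYC WT and 12724, 12455 and 12309 in MYC MUT (-0.51, SE 0.066, adjusted p = 0.000138). ATP5PB (ENSG00000116459, chr1:111448864-111462773), the b subunit of the peripheral stalk, was at 22430, 21290 and 22851 in MYC WT and 15757, 15341 and 15847 in MYC MUT (-0.50, SE 0.059, adjusted p = 7.96e-05).

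The single member that rose was COX7A2 (ENSG00000112695, chr6:75237675-75250323), the general form of a complex IV subunit whose muscle form, COX7A1, had no reads. It was at 8845, 8832 and 10104 in MYC WT and at 15071, 14493 and 14675 in MYC MUT, with no overlap (log2 fold change 0.67, SE 0.077, limma adjusted p = 6.40e-05). UQCRB, SDHB and COX7A2 passed the thresholds in all 21 alternative settings, whereas ATP5PB missed the fold threshold in 8 of them, ATP5F1C in 5, NDUFS5 in 4 and COX6C in 2. None of the 7 changed direction.

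**Figure D2:**
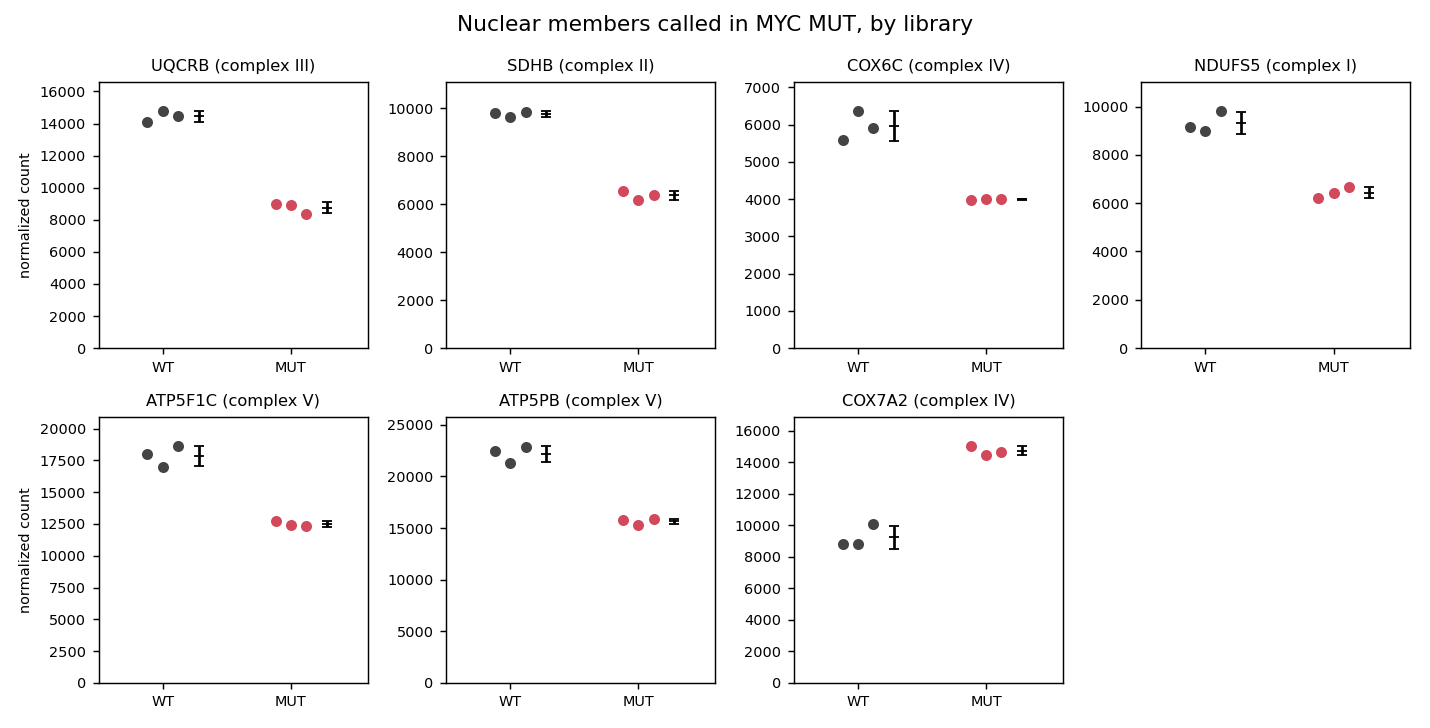
Normalized counts (linear axis from 0) of the 7 nuclear members called in MYC MUT are shown for each library of MYC WT and of MYC MUT, with bars for the mean and SD of 3 libraries. In all 7 panels MYC MUT is separate from MYC WT, below it in 6 and above it for COX7A2.

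By complex, the median log2 fold changes in MYC MUT were 0.057 over 36 nuclear members of complex I, -0.019 over 4 of complex II, 0.12 over 9 of complex III, -0.12 over 14 of complex IV and -0.13 over 19 of complex V. In complex V 9 of 19 members fell and 1 rose by adjusted p alone, where 19.8% and 18.6% of all genes did. The one that rose was ATP5F1E, the epsilon subunit, from 9419, 9710 and 10000 to 12054, 12191 and 12795 (0.35, limma adjusted p = 0.000864). The peripheral stalk genes ATP5PO and ATP5PD (-0.20 and -0.16), the c-ring genes ATP5MC1 and ATP5MC2 (-0.29 and -0.20) and the inhibitor gene ATP5IF1 (-0.24) were among those that fell, all by less than the fold threshold. Of these 5, ATP5IF1 alone passed in all 21 alternative settings. ATP5PD and ATP5MC2 lost the adjusted p in 14 of 21 each (up to 0.30 and 0.24, limma, with equal totals of nuclear genes), ATP5PO in 11 (up to 0.16) and ATP5MC1 in 8 (up to 0.084, without MYC MUT replicate 2). ATP5MC3, which encodes the same mature c subunit, had a log2 fold change of -0.017 and did not pass.

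In complex IV 6 of 14 fell and 1 rose by adjusted p alone, where 19.8% and 18.6% of all genes did. COX7B went from 10299, 10155 and 10404 to 7696, 7142 and 7847 and COX5A from 15326, 15926 and 16631 to 11523, 11662 and 12172, both without overlap. They fell by 0.44 on the log2 scale each, NDUFA4 by 0.28, COX7A2L by 0.25 and COX4I1 by 0.23, beside COX6C. COX7A2L lost the adjusted p in 12 of 21 alternative settings (limma, up to 0.18), COX4I1 in 7 (up to 0.13) and NDUFA4 in 3 (up to 0.066), while COX7B and COX5A kept it in all 21. In complex III the hinge protein genes UQCRH and UQCRHL fell (-0.43 and -0.44) while the core subunit genes UQCRC1 and UQCRC2 rose (0.31 and 0.21), so that its members moved in both directions. UQCRC2 lost the adjusted p in 6 of 21 settings (limma, up to 0.12). Complex II was split as well: SDHC, a membrane anchor, rose from 7661, 7129 and 6918 to 8549, 8541 and 8601 (0.24, adjusted p = 0.00881), whereas SDHA and SDHD had log2 fold changes of -0.11 and 0.069 that did not pass. In complex I 3 of 36 rose and 7 fell by adjusted p alone, 27.8% of them against 38.4% of all genes. After NDUFS5 came NDUFB9 at -0.44, NDUFA1 at -0.42 and NDUFB6 at -0.40, with NDUFA13 at 0.32 in the other direction.

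**Figure D3:**
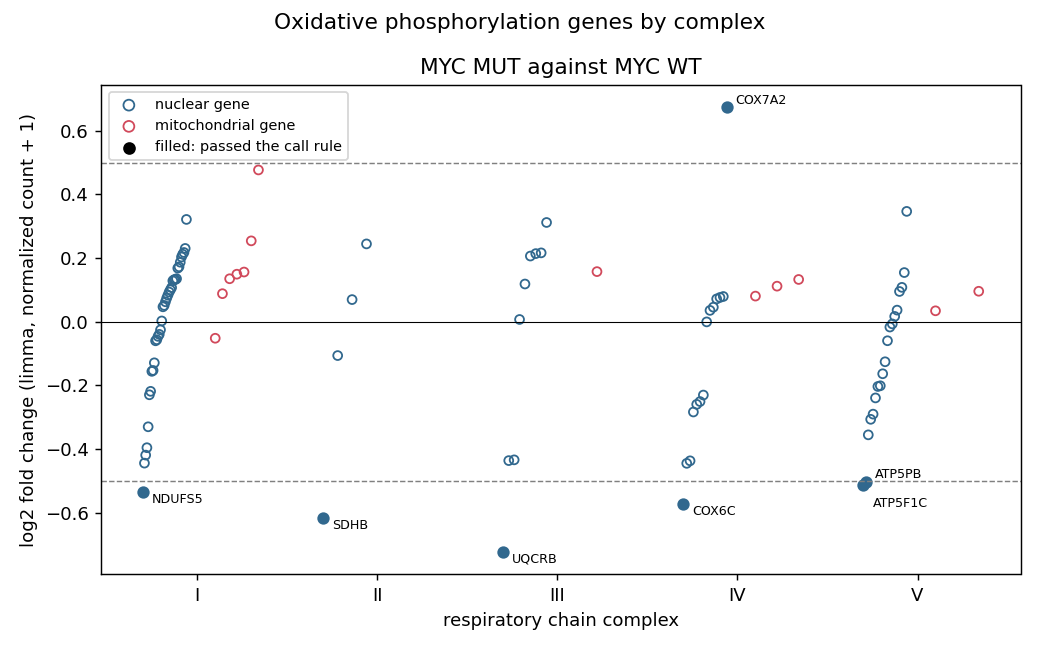
The log2 fold change of each tested member against MYC WT (limma, log2 of normalized count + 1) is plotted by complex for MYC MUT, with nuclear and mitochondrial genes in different colours, filled points for those past the thresholds and dashed lines at a log2 fold change of 0.5 in either direction. There are 7 filled points, 6 of them below 0.

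The changes were also set beside those of neighbouring genes. For each nuclear member the median log2 fold change of the 50 nearest tested genes that are not members was taken. In MYC MUT this median was below -0.2 for 13 members, and all 13 had negative log2 fold changes with a median of -0.44, each further from 0 than its neighbours. They were UQCRB, COX6C and NDUFB9 on chromosome 8, SDHB, UQCRHL, NDUFS5 and UQCRH on chromosome 1, ATP5F1C, NDUFB8 and ATP5MK on chromosome 10, COX7B and NDUFA1 on chromosome X, and NDUFB6 on chromosome 9. Around UQCRB the neighbour median was -0.40, with 37 of 50 genes below 0 and 19 called lower, and around COX6C it was -0.39. The medians were -0.36 around NDUFS5, -0.28 around SDHB and -0.28 around ATP5F1C. These neighbourhoods are partly shared, as for UQCRB with COX6C and for SDHB with UQCRHL. UQCRH and UQCRHL are near-identical and share reads, as described below, so that their values are not separate.

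Neighbour medians above 0.2 were found in MYC MUT for 8 members, of which 5 were above 0, with a median of 0.039. ATP5F1E on chromosome 20 lay at 0.35, as did its neighbours (0.35), and NDUFA2 on chromosome 5 was at 0.21 with neighbours at 0.67. NDUFS6, COX6B1 and UQCR10 were at 0.13, 0.072 and 0.0070, NDUFS7 and SDHA at -0.026 and -0.11. ATP5F1D on chromosome 19, the delta subunit of the ATP synthase, went against its neighbours, with -0.31 (limma adjusted p = 0.0105, and 0.052 without MYC MUT replicate 1) where they had a median of 0.31. COX7A2 exceeded the median of its neighbours, at 0.67 against 0.17, and ATP5PB lay below that of its own, at -0.50 against -0.19. The upper quartile of the neighbours of COX7A2 was 0.62. Among these 50 neighbours 15 were called higher and 4 lower, where 11.3% of all genes rose and 10.1% fell. Around ATP5PB 9 neighbours were called lower and 9 higher. Over all 82 members the correlation between a member and its neighbours was 0.73 (Pearson) or 0.67 (Spearman). It is a description over genes that share libraries and, in part, neighbours or reads. Of the 61 members whose neighbour median was within 0.2 of 0, 20 passed the adjusted p, and of the 21 beyond it 15 did. Over all genes tested 38.4% passed it. The part of the neighbouring changes in the members' values was not tested.

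Many of these genes have near-identical copies elsewhere in the genome. With transcripts aligned at 95% identity or more over at least 150 bases, 32 members had a separate copy, 49 copies in all. In 21 members more than 10% of the counts shared between a gene and its copies were assigned to copies, by means over the 9 RNA-seq libraries. This criterion also takes in other genes that share only a stretch of sequence, with all their counts. Such cases are CRELD1 with 244 aligned bases for NDUFA9 (8356 bases) and GCSH with 449 for NDUFS1 (11660 bases). The aligner named in the methods does not split reads across introns, and reads of spliced mRNA that lie across exons can match an intronless copy over their full length. NDUFV2, a core complex I subunit gene, was listed at 125 to 159 normalized counts, whereas its copy NDUFV2P1 was at 4035 to 4350. UQCRH had 7315 and UQCRHL, which has 1 exon, 17696 in MYC WT on average. Of the 7 members called, 6 had no separate copy by this criterion, and ATP5PB had 12.4% of the shared counts in a copy on chromosome 18. COX6A1, the general form of a complex IV subunit, had 46.8% in COX6A1P2 on chromosome 6.

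Sums over a gene and its copies, which were chosen after the values were seen, kept the direction of the main changes. The log2 ratio to MYC WT of UQCRH with UQCRHL was -0.44 in MYC MUT, and that of ATP5PB with its copy was -0.46. For members that changed by adjusted p, the sums gave -0.26 for ATP5MK (-0.36 alone, 40.9% of the shared counts in its copy), -0.24 for NDUFA4 (-0.28 alone, its copy at a mean of 2877 normalized counts against 5574 for the gene) and 0.21 for SDHC (0.24 alone, its copy at 2940 against 7573). The log2 ratio was 0.10 for ATP5MG with its copies and 0.080 for COX6A1 with COX6A1P2. For NDUFV2 with NDUFV2P1 it was 0.052, of the opposite sign to the log2 fold change of NDUFV2 alone (-0.16). In addition, 16 members were overlapped on the same strand by another annotated gene with shared sequence. Which reads belong to which copy cannot be settled from counts, and the single values of the 21 members with more than 10% in copies, and of ATP5MG, which shares sequence with ATP5MGL, are uncertain for this reason. Besides those named here they include ATP5PD (24.6%) and ATP5F1E (16.0%). NDUFA9 (36.5%) and NDUFS1 (20.3%) are also among the 21, though they share only stretches with the genes counted as copies.

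The 13 mRNAs of the mitochondrial genome took 0.725% to 1.11% of the reads in genes, after removal of duplicates, which can lower the counts of abundant short transcripts. None of these mRNAs passed both thresholds in MYC MUT by limma (0 of 13), where 21.4% of all genes did. The count was also 0 by edgeR and DESeq2 on the recovered reads. By unadjusted p under 0.05 the count was 1. By adjusted p alone 1 of 13 passed, against 38.4% of all genes. In 1 of 13 the libraries of the lines did not overlap, against 52.3% of all genes. The median log2 fold change was 0.13, and 12 of the 13 values were above 0. Set against the mean of MYC WT for each gene, the library medians of the 13 genes were -0.32, 0.0057 and 0.25 on the log2 scale in MYC WT (SD 0.29) and 0.042, 0.071 and 0.27 in MYC MUT (SD 0.12), so that the lines overlapped. The nuclear members had SDs of 0.056 and 0.031 on the same scale. The ratio of mitochondrial to nuclear member reads was 0.796 ± 0.191 (SD, n = 3) in MYC WT and 0.908 ± 0.0641 in MYC MUT, with MYC WT replicate 3 lowest, at 0.608. Without any 1 library the median log2 fold change moved between -0.022, without MYC WT replicate 3, and 0.30, without MYC WT replicate 2.

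MT-ND1, a core subunit of the complex I membrane arm (chrM:3307-4262), was the exception by adjusted p. It was at 31969, 31371 and 22249 in MYC WT and 39534, 36911 and 41203 in MYC MUT. All MYC MUT libraries lay above all MYC WT libraries (log2 fold change 0.48, SE 0.16, limma adjusted p = 0.033, just under the fold threshold). The adjusted p was above 0.05 in 5 of 21 alternative settings, with a log2 fold change of 0.31 and an adjusted p of 0.13 without MYC WT replicate 3. As a share of mitochondrial mRNA, MT-ND1 was 4.71%, 3.70% and 4.00% in MYC WT and 5.43%, 5.19% and 4.98% in MYC MUT, again without overlap. The shares of MT-CO2 and MT-ATP6 were lower in every MYC MUT library than in every MYC WT library, with means of 8.35% against 8.70% and 8.91% against 9.58%. For MT-CO2 the nearest libraries were at 8.43% and 8.46%. The shares within a library add up to 1 total and are not independent. By normalized counts both genes had log2 fold changes above 0 in MYC MUT (0.080 and 0.034). MT-TL1, the leucine tRNA gene beside MT-ND1, was also higher in MYC MUT and was chosen after its values were seen. It was at 68.7, 69.6 and 34.7 in MYC WT and 107, 101 and 109 in MYC MUT (0.93, limma adjusted p = 0.011). Genes on the other sides did not pass. MT-RNR2 beside MT-TL1 was at -0.11, and MT-TI and MT-TQ past MT-ND1 were at -0.11 and -0.32.

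The other complex I mRNAs of this genome were at log2 fold changes in MYC MUT of 0.25 (MT-ND2), 0.088 (MT-ND3), 0.15 (MT-ND4), 0.16 (MT-ND4L), 0.13 (MT-ND5) and -0.052 (MT-ND6). MT-CYB of complex III was at 0.16. The complex IV core genes MT-CO1, MT-CO2 and MT-CO3 were at 0.13, 0.080 and 0.11, and MT-ATP6 and MT-ATP8 of complex V at 0.034 and 0.096. None of these passed the adjusted p. MT-ND6, the only mRNA read from the light strand, had the lowest level per kb in MYC WT, 4276 ± 830, and MT-CO3 the highest, 113267 ± 17504 (SD, n = 3). The MT-ATP8 and MT-ATP6 genes overlap, as do MT-ND4L and MT-ND4, so that their counts are not fully separate. MTATP6P1 and MTND2P28, nuclear copies of mitochondrial sequence on chromosome 1, were listed at 4226 to 6179 and 1696 to 2787 normalized counts.

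Replicate 1 of both lines stood apart from the other libraries in its mitochondrial profile. MT-ND2 took 5.32% and 5.24% of mitochondrial mRNA in replicate 1 of MYC WT and of MYC MUT, and 3.89% to 4.65% in the 4 others. MT-CO1 was lowest in the same libraries, at 16.7% and 17.6%, and at 18.6% to 20.3% in the others.

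Genes that serve the same pathway were taken from lists of assembly factors, electron carriers, mitochondrial DNA and RNA factors, nuclear regulators and the TCA cycle. By the rule used for these lists 11.3% of all genes rose and 10.1% fell. In MYC MUT 1 of 18 complex I assembly genes rose and 1 fell, NDUFAF4 (0.59) and NDUFAF6 (-0.69). For complex II 1 of 4 rose, SDHAF2 (0.62), for complex III 1 of 9 rose, UQCC1 (0.56), for complex IV 1 of 22 fell, COX15 (-0.53), and for complex V 1 of 5 fell, TMEM242 (-0.77). In the group of electron carriers and other subunits 5 of 18 fell and none rose. These were CYC1, the cytochrome c1 of complex III (-0.61, limma adjusted p = 0.000105), ETFB (-0.63), and the ubiquinone synthesis genes COQ8A (-1.01), COQ8B (-0.55) and PDSS1 (-0.52). Cytochrome c itself, CYCS, was at 0.0094 and did not pass.

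Of 14 genes for mitochondrial DNA replication and transcription 2 fell, TOP1MT, the mitochondrial topoisomerase (-1.02), and MTERF3 (-0.66). Both are on chromosome 8, as are CYC1 and NDUFAF6. Neighbouring genes were compared for the nuclear members only and not for the genes of these lists. Of 15 RNA processing genes 2 fell, the poly(A) polymerase gene MTPAP (-0.53) and TFB1M, the methyltransferase of the mitochondrial small rRNA. TFB1M was at 2617, 3242 and 2978 in MYC WT and at 1040, 1021 and 1001 in MYC MUT (-1.52, SE 0.10, limma adjusted p = 1.97e-06), without overlap. The transcription factors of the mitochondrial genome did not pass: TFAM was at -0.15, POLRMT at -0.021 and TFB2M at 0.13. Among 10 nuclear regulators ESRRG, an orphan nuclear receptor, rose from 43.1, 48.3 and 52.0 to 205, 238 and 237 (2.22, adjusted p = 0.000259). ESRRA fell by less than the fold threshold, from 4648, 4306 and 4758 to 3770, 3772 and 3758 (-0.28, limma adjusted p = 0.0099). NRF1 (-0.072), GABPA (-0.091) and PPARGC1A (-0.00028) did not pass in MYC MUT.

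Of 19 TCA cycle genes 2 fell past both thresholds, IDH2 (-0.63) and PC (-0.71), and 9 fell and none rose by adjusted p alone, where 19.8% of all genes fell and 18.6% rose. The median log2 fold change of the list was -0.17, against -0.0034 over all genes. CS, the citrate synthase gene, was among the 9, at -0.27, and MDH2 at -0.25.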

How the data were processed

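The authors sequenced poly(A) RNA of HEK293T lines with a directional kit, aligned reads to hg38 with bwa mem, removed duplicates with Picard, which can lower the counts of abundant short transcripts, and counted GENCODE genes; the counting tool and use of strand are not given in the sources used here. The deposited values are DESeq-normalized counts per gene, a signal scaled by the authors' size factors. In every library 100% of the values were whole reads within 0.01 reads once the size factor was undone, which recovered reads for the count tests. Gene names, positions and canonical transcript lengths were taken from GENCODE release 44. The series holds 213 samples, and 204 of other assays were not used here.

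Differences were fitted with limma 3.58.1 (R 4.3.3, moderated statistics with a mean-variance trend) after adding 1 and taking log2, over all 9 RNA-seq libraries, which share 1 estimate of the spread, for 20884 genes with a mean of at least 10. Adjusted p-values are Benjamini-Hochberg over all genes tested, and fold changes on this scale are understated for low genes. Calls needed an adjusted p below 0.05 with an absolute log2 fold change above 0.5. On recovered reads, edgeR 4.0.16 (quasi-likelihood) called 4554 genes in MYC MUT, and DESeq2 1.42.0 called 4412. The limma fit also held another line, which is not reported here. The alternatives were other pseudocounts, filters, scalings, tools and thresholds, the replicate number as a block, and leaving out each library. Copies were found with BLAST+ 2.17.0. Intervals from 0 reads used 3 reads and cover counting error only.

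The gene family and the related lists were chosen with earlier results of these data known, and the members of the family by symbol. Named were all mitochondrial members, all called nuclear members, the extremes per complex, tissue-restricted forms, members in neighbourhoods beyond 0.2, and called genes of the related lists; others named were chosen after their values were seen. Replicates differed beyond sampling noise.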

Additional observations from a re-analysis of the deposited data

How the results depend on the processing

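The direction of every named member that was called held in all alternatives. In MYC MUT, 7 nuclear members were called, and 3 with equal totals, 3 with equal totals of nuclear genes, 4 with equal upper quartiles, 35 with adjusted p alone, 0 with a log2 fold change beyond 1, and 4 to 7 when 1 library was left out (4 without MYC WT replicate 3). UQCRB, SDHB and COX7A2 were the 3 that remained with equal totals. For mitochondrial members the count of 0 became 1 with equal totals, equal totals of nuclear genes, equal upper quartiles and adjusted p alone, and was 0 to 1 without 1 library (1 without MYC WT replicate 1 or 2), and the gene was MT-ND1. The nuclear median, 0.00080, became 0.076 with equal totals and 0.077 with equal totals of nuclear genes, where the median of all genes became 0.071 and 0.073. Same-numbered libraries of MYC WT and MYC MUT deviated together with correlations of 0.049 to 0.33, and differently numbered ones with -0.24 to 0.15. The titles give this number as that of a biological replicate. The sources used here do not say whether equal numbers share a day or culture. The number therefore entered only as a block in an alternative setting. Whether it marks a pairing was not tested. With the replicate block the counts were 7 for nuclear and 0 for mitochondrial members, and the adjusted p of MT-ND1 was 0.00812 (limma). Over all 21 alternatives it ranged from there to 0.13, with 5 above 0.05: without MYC WT replicate 3, without each MYC MUT library, and by limma without a mean-variance trend. The cause of each shift was not tested. With 3 libraries per line, changes of mitochondrial mRNAs within their spread were not detectable.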
